A study of Mus musculus with 74 samples.

Results

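The proteasome genes on this array were taken by symbol: every probe whose gene symbol in the platform's annotation starts with Psma to Psmg and a number. The rule found 49 probes for 47 genes among 16463 probes. Of these, Psmc3ip, a recombination factor, and Psme3ip1, a protein that binds Psme3, share the letters but are not proteasome subunits, which left 47 probes for 45 genes. They held 5 interferon-inducible genes (Psmb8, Psmb9, Psmb10, Psme1 and Psme2) and 42 probes for 40 constitutive or accessory genes. Constitutive is used below as a short name for all members outside those 5, Psma8 of the alpha ring included. Whether each is expressed in all tissues was not checked. The second class comprised 8 alpha ring probes, 7 beta ring probes, 5 probes of ATPases of the regulatory particle, 15 probes of its other subunits and helpers, 2 probes of other activators, 1 inhibitor probe and 4 probes of assembly chaperones. Psmd11 and Psmg3 have 2 probes each, which are told apart by their identifiers.

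The series comprised 74 mouse arrays in 11 groups, each array carrying a pair of RNAs in different dyes, with dye orientation balanced in every group. In 7 groups the cells were the DO11.10 T cell hybridoma and the partner RNA came from untreated hybridoma cells. These groups were the empty retrovirus MSCV in a first set (virus A, 12 arrays) and a second set (virus B, 4 arrays), viruses for HDAC7-VP16 (10 arrays) or MEF2D-VP16 (4 arrays) or for Nur77 (4 arrays), and PMA with ionomycin for 2.5 h on cells with the empty virus or with the virus labelled HDAC7 DP (8 arrays each). VP16 is a viral activation domain, HDAC7 a histone deacetylase that MEF2 factors bring to DNA, and Nur77 the nuclear receptor encoded by Nr4a1. In the other 4 groups, of 6 arrays each, the RNA came from total thymocytes: DO11.10 mice, which carry a transgenic T cell receptor, were set against mhc -/- mice, and DO11.10 mice taken 3 h, 6 h or 12 h after injection of antigenic peptide were set against uninjected DO11.10 mice. The hybridoma is 1 line, and the MHC genes missing in the mhc -/- mice, the strain, the age, the dose and the number of animals per RNA are not stated in the labels. All values are log2 ratios and hold no level of their own, so marker genes could be compared between both RNAs of an array but not checked for presence.

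The proteasome is the cell's main protease for ubiquitin-tagged proteins. Its core is a stack of alpha and beta rings, and Psmb5, Psmb6 and Psmb7 carry the cutting sites of the standard core. Interferon-gamma induces Psmb8, Psmb9 and Psmb10, which replace these 3 in newly built cores to form the immunoproteasome, and Psme1 and Psme2, which together form an activator cap. These cores cut peptides that suit MHC class I molecules. The regulatory particle, made of Psmc ATPases and Psmd subunits, binds ubiquitin chains, removes them, unfolds the substrate and feeds it into the core.

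The upstream sequence of Psmb9 is shown because it is shared with a neighbour from the same pathway, and Psmb9 but not that neighbour was called after peptide. RefSeq (GRCm38.p6) gave a window for 39 of the 47 member genes. The 250 bases upstream of Psmb9 lie at chr17:34187331-34187580 on the minus strand. Psmb9 and Tap1, the gene of a peptide transporter subunit, are read away from each other, with 225 bases between their starts. Capitals mark a match to a CCAAT box on the opposite strand. A match to the antioxidant response element described below, TGATGGGGC at 60 to 52 bases upstream, is left in small letters.
Psmb9: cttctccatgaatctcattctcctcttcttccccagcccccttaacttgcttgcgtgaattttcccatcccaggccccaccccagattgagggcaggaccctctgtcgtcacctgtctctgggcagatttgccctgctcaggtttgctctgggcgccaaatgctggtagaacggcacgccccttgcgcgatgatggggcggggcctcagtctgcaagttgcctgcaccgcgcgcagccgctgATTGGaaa

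Matches to 4 motifs were searched on both strands of 32817 mouse windows of this length. The interferon regulatory factor (IRF) element, spelled as GAAA, any 2 bases and GAAA again, was found in 2.97% of all windows, in 0 of 6 windows of the inducible genes and in 3 of 33 windows of the constitutive ones (Psmb3, Psmd4 and Psmd9). The CCAAT box stood in 33.8% of all windows, in 1 of the 6 inducible ones and in 11 of the 33 constitutive ones. The antioxidant response element, spelled TGANNNNGC, stood in 35.2% of all windows, in 2 of those 6 and in 12 of those 33. The MEF2 element was in 2.92% of all windows and in 0 windows of the members of both classes. These letters describe windows of 250 bases, and elements farther away were not searched.

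Each array was centred on its median, and each comparison was fitted with limma over all 16463 probes with a column for dye orientation. The threshold for a call was an adjusted p below 0.05 (Benjamini-Hochberg), and rose or fell is used of called probes. Values are log2 changes with their standard error (SE). Positive values were read as more RNA with the construct, stimulus or peptide than in the partner, and in the group with mhc -/- mice as more RNA in DO11.10 thymocytes. That reading rests on the checked genes: Nr4a1 on the Nur77 arrays (4.36 over virus B), Cd69 at 3 h after peptide (2.53), and B2m, the light chain of MHC class I, in DO11.10 over mhc -/- thymocytes (3.26). The Mef2d probe did not follow its construct (-0.04, adjusted p = 0.932). Hdac7 was not called with HDAC7-VP16 (0.42, adjusted p = 0.0732) or with HDAC7 DP (2.31, adjusted p = 0.127), but rose with MEF2D-VP16 over virus B (2.19, adjusted p = 6.74e-05), where virus B itself was lower than untreated cells (-0.83). The files do not say whether these probes match the transcripts of the constructs, so the MEF2D-VP16 and HDAC7 labels were not checked by their own genes. On virus A, replicates 3 and 9 ran against arrays of their own dye, so their direction is unsettled, and results that use virus A are given with their sign turned where a call depended on it. The source name of 1 HDAC7-VP16 array, replicate 1, names the empty virus against its title. No label states whether replicate arrays carried RNA from separate cultures or animals, so the p-values cover the spread among arrays alone, part of which may be technical.

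**Figure D1:**
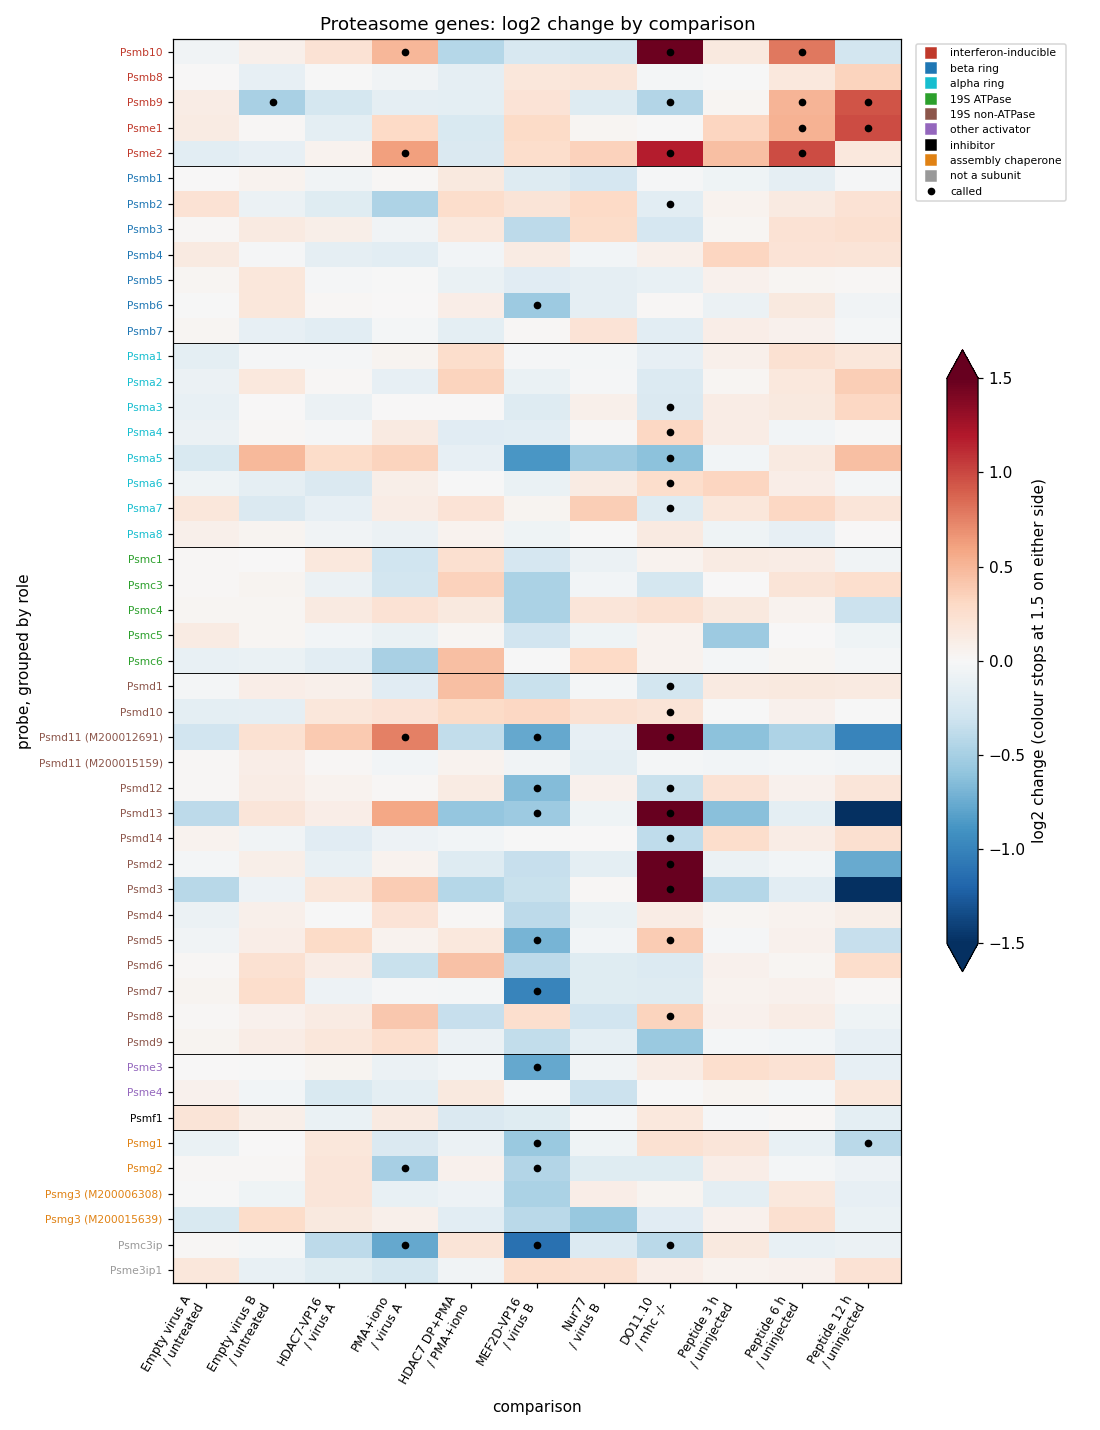
Heat map of the log2 change of all 49 probes (rows, grouped and coloured by role) in the 11 comparisons (columns). The colour scale runs from -1.5 to 1.5, and larger values take the end colours; black dots mark probes called at an adjusted p under 0.05. The calls after peptide at 6 h lie on 4 inducible genes, those with MEF2D-VP16 on 9 constitutive or accessory probes and Psmc3ip, and the mhc -/- comparison holds the most calls, 20.

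At 6 h after peptide, 4 of the 5 inducible genes rose in the thymus and 0 of the 42 constitutive probes were called by limma in either direction (9 had an unadjusted p under 0.05). Over all probes, 2.03% were called higher and 2.54% lower, 4.57% in all. Psme2, an activator cap subunit, rose 1.97-fold. Psmb10, the inducible counterpart of Psmb7, rose 1.73-fold. Psme1, the partner of Psme2, rose 1.44-fold, and Psmb9, the counterpart of Psmb6, rose 1.43-fold. Psmb8, the counterpart of Psmb5, was not called at 0.15 (SE 0.07, adjusted p = 0.337).

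On the 6 arrays Psme2 ran from 0.47 to 1.29 with a median of 1.03 (log2 change 0.98, SE 0.10, adjusted p = 0.00155). Psmb10 ran from 0.37 to 0.96 with a median of 0.84 (0.79, SE 0.07, adjusted p = 0.00101). Psmb9 had the narrowest spread of the 5, from 0.36 to 0.63 with a median of 0.51 (0.51, SE 0.06, adjusted p = 0.00235). All 6 arrays lay above 0 for these 3 genes and for Psme1, which ran from 0.26 to 0.77 with a median of 0.52 (0.52, SE 0.08, adjusted p = 0.00966). Psme1 alone lost its call when an array was left out (without replicate 5, adjusted p = 0.0620). Psmb8 lay above 0 on 4 arrays, from -0.03 to 0.41.

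The standard counterparts stayed near 0 at 6 h. Psmb5 averaged 0.03 ± 0.27 (SD, n = 6), Psmb6 averaged 0.14 ± 0.14 and Psmb7 averaged 0.06 ± 0.21. The median of the 5 inducible genes lay above that of the constitutive probes on each of the 6 arrays, by 0.32 to 0.76. Over the arrays of the group the constitutive probes had a median log2 change of 0.06, with 30 of 42 above 0, and all probes a median of 0.01. By role, 6 of 8 alpha ring, 6 of 7 beta ring and 5 of 5 ATPase probes lay above 0 without a call.

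At 3 h after peptide, 0 of the 49 probes were called, against 1.49% of all probes called higher and 1.21% lower, 2.71% in all; at an unadjusted p under 0.05 there were 2 inducible and 7 constitutive probes. Psme2 ran from 0.02 to 1.01 with a median of 0.36 (log2 change 0.45, SE 0.13, adjusted p = 0.136). Psme1 ran from 0.09 to 0.58 with a median of 0.31 (0.32, SE 0.07, adjusted p = 0.0676). Both lay above 0 on all 6 arrays. Psmb8 (0.00), Psmb9 (0.02) and Psmb10 (0.15) lay on both sides of 0. Psmc5, an ATPase of the regulatory particle, had the lowest value of the ATPases at -0.54 (SE 0.11, adjusted p = 0.0577), with 1 of 6 arrays above 0.

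At 12 h, Psme1 rose 1.98-fold (log2 change 0.98, SE 0.10, adjusted p = 0.00880) and Psmb9 rose 1.93-fold (0.95, SE 0.11, adjusted p = 0.0136). Psmg1, a chaperone of alpha ring assembly, fell by 0.41 (SE 0.07, adjusted p = 0.0426). Over all probes 1.66% were called higher and 1.72% lower, 3.38% in all. Psme1 ran from 0.73 to 1.54 with a median of 0.88, and Psmb9 from 0.68 to 1.61 with a median of 0.86, so all 6 arrays lay above 0 for both. Psmb8 was at 0.33 (SE 0.09, adjusted p = 0.0968), above 0 on 5 arrays. Psmb10 (-0.27) and Psme2 (0.16) were not called, and their arrays fell on both sides of 0.

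The 6 arrays at 12 h came from a pair of slide sets that differed in these genes. Slides 13 to 16 (4 arrays) had a median correlation of 0.777 with each other over all 16463 probes and of 0.163 with slides 13-7 and 13-8. The latter pair correlated at 0.103 with each other, so they are the remaining arrays rather than a set that agrees within itself. These correlations are a description with no test. On slides 13 to 16 Psme2 read -0.15, -0.21, -0.23 and -0.40, and on the other slides 0.84 and 1.12. Psmb10 read -1.07, -0.64, -0.06 and -0.76 on the first set and 0.89 and -0.01 on the second. Neither gene overlapped between the sets, although for Psmb10 they came as close as -0.06 and -0.01. The share of all probes without overlap between the sets was not computed. Psmb9 averaged 0.81 and 1.23, and Psme1 0.91 and 1.13, in the same order.

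A group of 4 constitutive probes also differed between the sets, and Psmd13 and Psmd3 did so by far more than Psme2 or Psmb10. Psmd13, a subunit of the lid of the regulatory particle, read -3.18, -2.70, -3.30 and -3.16 on slides 13 to 16 and 0.56 and -0.51 on slides 13-7 and 13-8. Psmd3, another lid subunit, read -2.69, -2.51, -3.04 and -3.04 against -0.21 and -0.14. Psmd2, the large base subunit that binds ubiquitin-like proteins, averaged -1.27 against 0.27, and the lid subunit Psmd11 (probe M200012691) -1.40 against -0.14. In the fit over all 6 arrays none of these 4 was called: Psmd13 was at -2.05 (SE 0.58, adjusted p = 0.102) and Psmd3 at -1.94 (SE 0.49, adjusted p = 0.0813). The other Psmd11 probe, M200015159, averaged -0.04 ± 0.07 (SD, n = 6).

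Without slides 13-7 and 13-8, 19 of the 49 probes were called at 12 h (9 higher, 10 lower) and 24.7% of all probes. Psme1 (0.91, adjusted p = 0.000291) and Psmb9 (0.81, adjusted p = 0.000259) remained called, as did Psmg1. Psmb10 fell (-0.63, adjusted p = 0.0148) and so did Psme2 (-0.25, adjusted p = 0.0463), as did Psmd13, Psmd3, Psmd11 and Psmd2. Over all 6 arrays, leaving out any 1 of replicates 3, 5 and 6 (slides 13, 15 and 16) ended the calls of Psme1, Psmb9 and Psmg1, with adjusted p up to 0.0680, 0.0769 and 0.162; leaving out replicate 4 ended those of Psmb9 and Psmg1. The labels tell the sets apart by slide number alone.

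Slide sets also differed in the other peptide groups. At 3 h, Psmd13 read 0.29 and -0.11 on slides 13-3 and 13-4 and between -1.05 and -0.92 on the other 4 arrays. Without those 2 arrays, an alternative chosen after seeing the data, Psmd13, Psmd11, Psmc5 and Psmd3 fell and Psmd12 rose, 5 probes in all, where 8.79% of all probes were called. At 6 h, Psmd11 (probe M200012691) averaged -0.77 on slides 9 to 12 and 0.14 on slides 13-5 and 13-6. Without the latter pair 8 members and 11.6% of all probes were called at 6 h. They were the 4 inducible genes and 4 constitutive or accessory probes. Of the latter, Psma7 (0.34) and Psmg3 (probe M200015639, 0.36) rose, and Psmd13 (-0.28) and Psmd11 (-0.77) fell. The other Psmg3 probe was not called. The titles give the numbers 13-5 to 13-8 both to 3 h arrays and to 6 h or 12 h arrays.

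**Figure D2:**
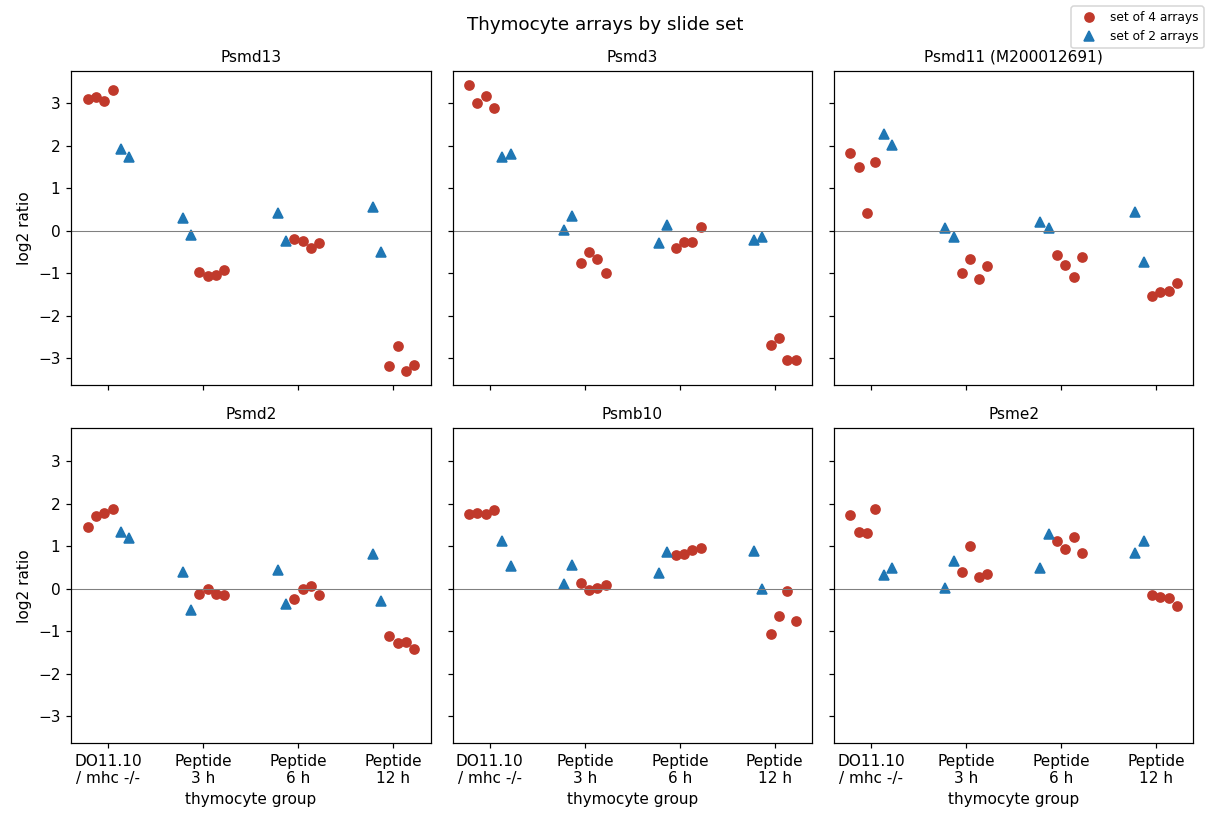
Log2 ratio (vertical axis) of Psmd13, Psmd3, Psmd11 (probe M200012691), Psmd2, Psmb10 and Psme2 on each of the 24 thymocyte arrays, by group (horizontal axis). Red circles are the larger slide set of a group (4 arrays) and blue triangles the smaller (2 arrays). At 12 h the circles of Psmd13 lie between -3.30 and -2.70 and the triangles at 0.56 and -0.51; in DO11.10 over mhc -/- thymocytes all points of these 6 probes lie above 0.

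The moderated F test across the peptide times called 4 members, Psmb9, Psme1, Psmb10 and Psmg1, where 4.09% of all probes were called. Between single times, 4.87% of all probes were called for 12 h against 3 h, 3.18% for 12 h against 6 h and 0.0121% for 6 h against 3 h. Psmb9 was 0.92 higher at 12 h than at 3 h (SE 0.12, adjusted p = 0.000538), and Psme1 was 0.66 higher (SE 0.13, adjusted p = 0.00939). Psmb10 was lower at 12 h than at 6 h by 1.06 on the log2 scale (difference -1.06, SE 0.24, adjusted p = 0.0264). Psmg1 was lower at 12 h than at 3 h (-0.59, SE 0.13, adjusted p = 0.0182). Psme2 was not called across the times (F test adjusted p = 0.137), nor was Psmb8 (adjusted p = 0.228). With slides 13-7 and 13-8 left out at 12 h, a choice made after seeing the data, 12 members were called, Psme2, Psmd13, Psmd3, Psmd2 and Psmd11 among them, while Psmg1 was not; 14.4% of all probes were called in that setting. The labels do not state whether the times share uninjected RNA.

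The genes that act with the inducible subunits were taken from a list of 34 interferon-inducible antigen presentation and signalling genes, 30 of them measured by 32 probes. At 3 h 7 probes rose and 0 fell, at 6 h 18 rose and 0 fell (median 0.43), and at 12 h 9 rose and 1 fell. Of all probes 1.49%, 2.03% and 1.66% were called higher at these times, and 1.21%, 2.54% and 1.72% lower. At 6 h the transcription factor genes Irf1 (1.61, adjusted p = 5.25e-06) and Irf8 (1.67, adjusted p = 4.40e-05) rose, as did the GTPase gene Gbp2 (1.90, adjusted p = 4.84e-06), and Ifng, the gene of interferon-gamma itself, rose by 0.37 (adjusted p = 0.0375). Tapbp, the gene of tapasin, which loads peptide onto class I molecules, rose at 3 h (0.59), 6 h (0.84) and 12 h (1.20). Tap1, whose start lies beside that of Psmb9, was not called at any time (-0.31 at 3 h, 0.20 at 6 h and -0.37 at 12 h). Irf1 rose at 3 h as well (0.93, adjusted p = 0.00308). For the 5 inducible proteasome genes the difference between 6 h and 3 h was not called (adjusted p from 0.297 for Psmb9 to 0.992 for Psmb8), so an order in time is not shown.

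Cell type markers moved in the same thymocyte RNA. Over all probes, 1.21% were called lower at 3 h, 2.54% at 6 h and 1.72% at 12 h. Of 10 thymic epithelial marker genes, 4 fell at 3 h, 5 at 6 h and 2 at 12 h, and 0 rose; their mean per array ran from -0.75 to -0.43 at 6 h. Of 12 macrophage and dendritic cell markers, 2, 4 and 1 fell and 0 rose, with array means from -0.21 to -0.06 at 6 h. Of 7 markers of double-positive thymocytes, 0, 1 and 0 fell and 0 rose, yet their mean lay below 0 on every array: from -0.57 to -0.31 at 3 h, from -0.73 to -0.05 at 6 h and from -0.79 to -0.14 at 12 h. Their part in the changes of the proteasome genes was not tested. In total thymocyte RNA, fewer cells of a type and less RNA per cell cannot be told apart.

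**Figure D3:**
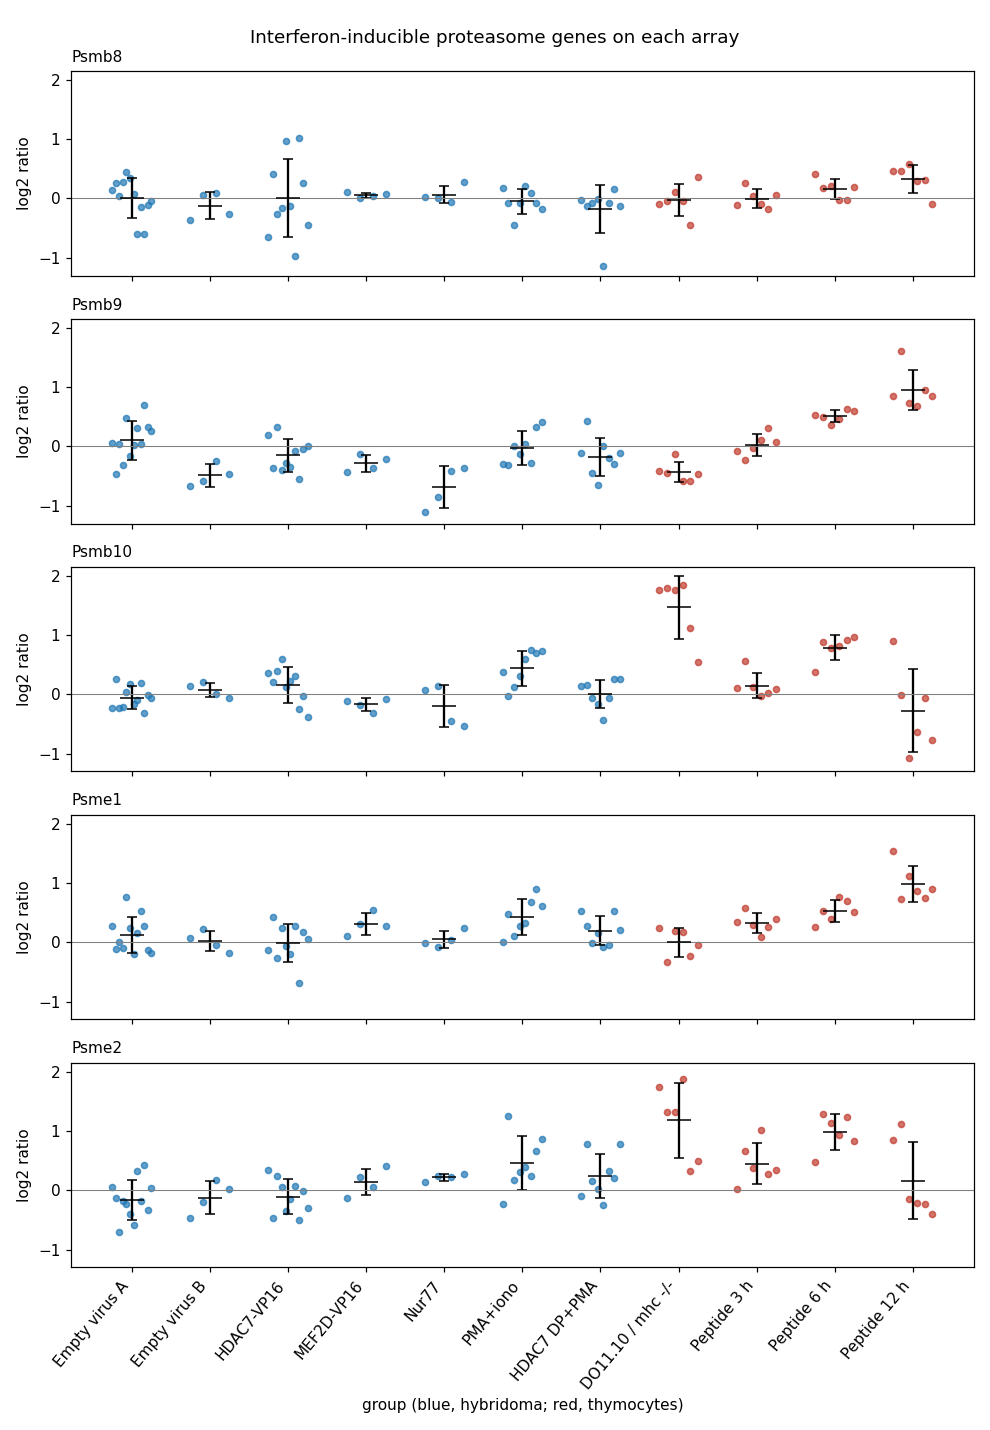
Log2 ratio (vertical axis) of the 5 interferon-inducible proteasome genes, 1 panel each, on every array of the 11 groups (horizontal axis); blue points are hybridoma arrays, red points thymocyte arrays, and black bars the mean and SD. Psmb9 and Psme1 lie above 0 on all 6 arrays at 6 h and at 12 h, whereas the arrays of Psmb10 and Psme2 at 12 h fall on both sides of 0.

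DO11.10 thymocytes differed from mhc -/- thymocytes in 20 of the 49 probes, 11 higher and 9 lower in DO11.10. This is close to the background, since 20.5% of all probes were called higher and 15.8% lower, 36.3% in all. The sizes were uneven. The 4 largest values belonged to the regulatory particle: Psmd13 was higher by 2.72 (6.59-fold, SE 0.24, adjusted p = 9.55e-05) and Psmd3 by 2.68 (6.39-fold, SE 0.25, adjusted p = 0.000126). Psmd11 (probe M200012691) was higher by 1.61 (SE 0.21, adjusted p = 0.000803) and Psmd2 by 1.56 (SE 0.09, adjusted p = 1.60e-05).

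Psmd13 ran from 1.74 to 3.32 over the 6 arrays with a median of 3.09, Psmd3 from 1.75 to 3.43, and Psmd2 from 1.19 to 1.88, all above 0. The other Psmd11 probe, M200015159, ran from -0.05 to -0.01 on the same arrays, so both probes of this gene disagreed. These are the same 4 probes that were low on slides 13 to 16 at 12 h after peptide. Both comparisons have uninjected DO11.10 thymocytes as a partner, as numerator here and as denominator there, so the values stand side by side only. The mean of these 4 probes also varied among replicate hybridoma arrays. It ran from -1.14 to 0.39 with virus A and from -1.31 to 0.64 with HDAC7-VP16, and from 1.69 to 2.45 on the arrays here. With virus A this mean ran from -1.14 to -0.19 where the virus RNA was in Cy3, and from -0.74 to 0.39 in Cy5. With HDAC7-VP16 it ran from -1.31 to 0.36 in Cy3 and from -0.99 to 0.64 in Cy5. Over all probes, virus A arrays of opposite dye correlated at a median of -0.40, and those of the same dye at 0.42. For HDAC7-VP16 these medians were -0.48 and 0.53. The source of the variation was not tested.

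Among the inducible genes, Psmb10 was higher in DO11.10 thymocytes by 1.47 (2.76-fold, SE 0.18, adjusted p = 0.000520) and Psme2 by 1.18 (2.26-fold, SE 0.22, adjusted p = 0.00445). Psmb9 went the other way at -0.44 (SE 0.07, adjusted p = 0.00204), from -0.58 to -0.12 and below 0 on all 6 arrays. Psmb8 (-0.03) and Psme1 (0.00) were not called. Psmb10 read 1.75 to 1.85 on slides 1 to 4 and 1.12 and 0.54 on slides 17 and 18, and Psme2 averaged 1.56 and 0.41 on these sets. Both slide sets lay above 0 for either gene. Of the 32 interferon-list probes 11 were higher and 7 lower in DO11.10 thymocytes, where 20.5% of all probes were called higher and 15.8% lower. Tap1, the neighbour of Psmb9, was among the higher ones and H2-D1 among the lower ones. Psmb8, like Psmb9, lies on chromosome 17. The missing MHC genes and the strain are not stated. A direct effect of genotype or strain on Psmb8, Psmb9 or Tap1 was not tested.

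The rest of the core moved less. Of 8 alpha ring probes, Psma4 (0.31) and Psma6 (0.27) rose and Psma3 (-0.22), Psma5 (-0.62) and Psma7 (-0.19) fell. Of 7 beta ring probes, Psmb2 (-0.16) fell, and Psmb5 (-0.11), Psmb6 (0.02) and Psmb7 (-0.16) were not called. Of the 5 ATPases 0 were called by limma (2 had an unadjusted p under 0.05). In the regulatory particle the deubiquitinase gene Psmd14 (-0.38), Psmd12 (-0.33) and Psmd1 (-0.27) fell, as did Psmc3ip (-0.40), which is not a subunit, and Psmd5 (0.39), Psmd8 (0.33) and Psmd10 (0.19) rose. Leaving out 1 array ended the calls of Psmb2 and Psmd8 for 5 of the 6 arrays, of Psmd10 for 4, of Psma6 and Psmd1 for 3, and of Psmd5 and Psma7 for 1. Without slides 17 and 18, Psma3, Psma7 and Psmb2 were not called.

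A second list held 28 ubiquitin and proteasome partner genes, of which 15 were measured by 17 probes. In DO11.10 over mhc -/- thymocytes 6 of these probes were higher and 2 lower. Over all probes 20.5% were called higher and 15.8% lower, which is the background of the marker counts below as well. Nfe2l2, the gene of the oxidative stress factor NRF2, was higher by 2.50 (adjusted p = 2.20e-05). Nfe2l1, whose protein drives proteasome genes when proteasome activity falls short, was higher by 0.66 (adjusted p = 0.000254), and Pomp, the gene of the core maturation protein, by 0.28 (adjusted p = 0.00347). At 3 h, 6 h and 12 h after peptide 0 of the 17 probes were called. Of 6 T cell markers 4 were higher and 1 lower in DO11.10 thymocytes, and of the 7 double-positive thymocyte markers 0 were higher and 3 lower (Rag1, Rag2 and Dntt). Of the thymic epithelial markers 5 were higher and 2 lower in DO11.10 thymocytes. Of the macrophage and dendritic cell markers, C1qa, Cd74, H2-Aa, H2-Ab1 and H2-Eb1 were higher and C1qb and C1qc lower. The H2 genes are themselves MHC genes, so against mhc -/- mice they cannot be read as cell markers alone. The 1 erythroid marker measured was higher by 2.04. That marker was at -1.32 at 3 h, -0.81 at 6 h and -1.18 at 12 h after peptide, called at 3 h and 6 h. Their part in these differences was not tested.

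In the hybridoma, proteasome RNAs of several roles were lower with MEF2D-VP16 than with virus B: 10 of the 49 probes fell and 0 rose, where 6.16% of all probes fell and 6.4% rose, 12.6% in all. Of these 10, 9 were constitutive or accessory members, and 5 of those belonged to the regulatory particle or its helpers. The largest among members was Psmd7, a lid subunit that partners the deubiquitinase, which fell by 0.99 (1.99-fold, SE 0.14, adjusted p = 0.00166). Psmc3ip, which is not a subunit, fell by 1.12 (SE 0.17, adjusted p = 0.00282). Of the 42 constitutive probes 36 lay below 0, with a median of -0.31, while all probes had a median of 0.00. Of the 5 inducible genes 4 lay above 0, with a median of 0.20, and 0 were called by limma (0 had an unadjusted p under 0.05). The difference between these classes was not tested.

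The MEF2D-VP16 arrays were slides 21, 22, 11 and 12, and the virus B arrays slides 1 to 4. The labels do not state whether these numbers mark separate slide sets. In this order Psmd7 read -0.74, -0.97, -0.45 and -0.73 with MEF2D-VP16 and 0.49, 0.70, -0.09 and -0.02 with virus B. Psmd5, a chaperone of base assembly, read -0.52, -0.82, -0.41 and -0.63 against 0.06, -0.07, 0.24 and 0.19 (log2 change -0.70, SE 0.13, adjusted p = 0.00795). Psmd12 read -0.68, -0.54, -0.46 and -0.47 against -0.14, -0.11, 0.35 and 0.33 (-0.65, SE 0.13, adjusted p = 0.00885). The groups did not overlap for these 3 genes. Their calls rest on the same arrays, so this adds no separate support, and the share of all probes without overlap was not computed. Psmb6, which cuts after acidic residues in the standard core, read -0.66, -0.21, -0.41 and -0.23 against 0.02, 0.08, 0.42 and 0.17 (-0.55, SE 0.12, adjusted p = 0.0140), also without overlap. Its inducible counterpart Psmb9 was at 0.20 in this comparison (SE 0.11, adjusted p = 0.315).

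Psmd11 (probe M200012691) fell by 0.77 (SE 0.16, adjusted p = 0.0133) and Psmd13 by 0.54 (SE 0.11, adjusted p = 0.0100). Against all 16 empty-virus arrays 4 of the 10 calls were lost, those of Psmd11 (-0.38), Psmd13 (-0.11), Psmg1 and Psmg2, whereas Psmd7, Psmd5, Psmd12, Psmb6, Psme3 and Psmc3ip were called. The second Psmd11 probe was at -0.05 (SE 0.20, adjusted p = 0.918). Psme3, the gene of the nuclear activator, fell by 0.76 (SE 0.19, adjusted p = 0.0296) with overlapping arrays, and the alpha ring chaperones Psmg1 (-0.55, adjusted p = 0.0418) and Psmg2 (-0.44, adjusted p = 0.0461) fell as well. These 3 lost their call when 1 array was left out, for 5, 7 and 8 of the 8 arrays. Psma5 was at -0.87 (SE 0.41, adjusted p = 0.242), with 1 virus B array at 2.17 and the other 3 between -0.16 and 0.02.

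**Figure D4:**
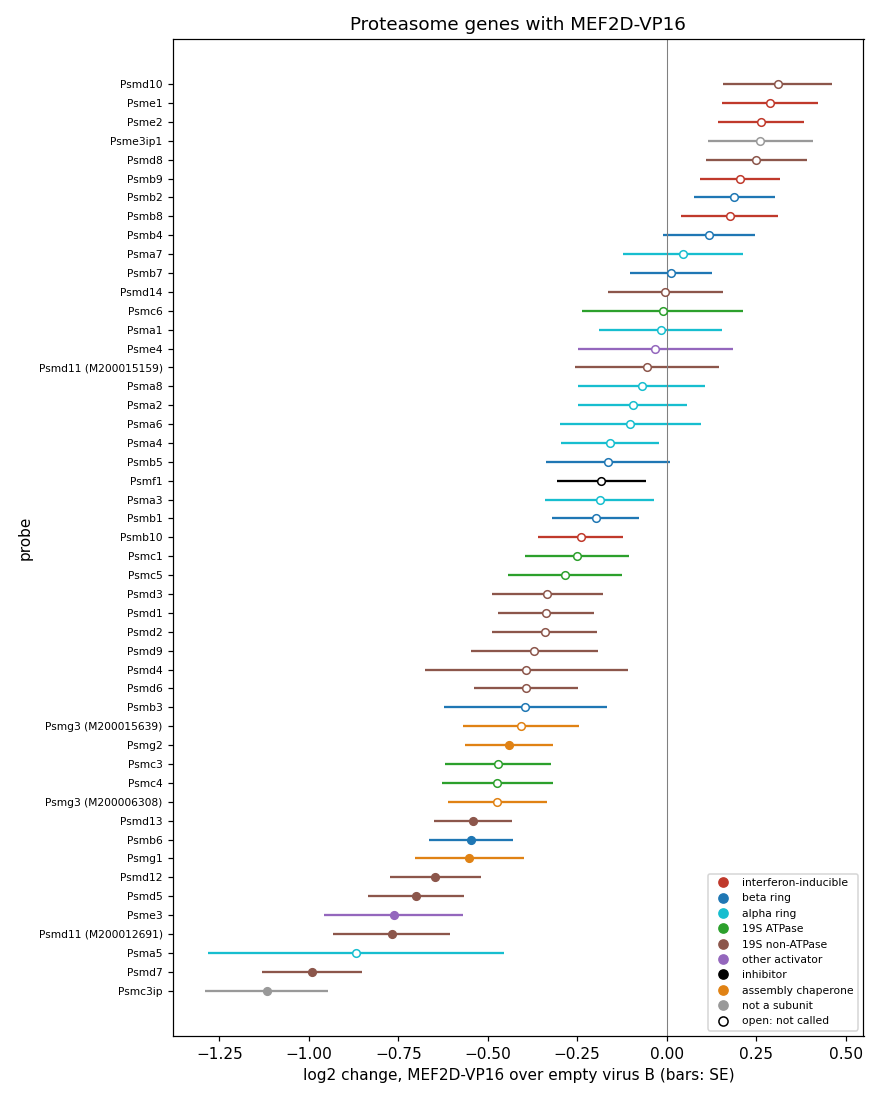
Log2 change (horizontal axis, bars SE) of the 49 probes with MEF2D-VP16 (4 arrays) over virus B (4 arrays), ordered by size and coloured by role. Filled points are called and open points are not. Called points lie between -1.12 and -0.44, and Psme1, Psme2, Psmb9 and Psmb8 lie to the right of 0.

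Partner genes of the proteasome went both ways with MEF2D-VP16: Nfe2l1 rose by 0.82 (adjusted p = 0.0109) and Uchl5, a deubiquitinase that binds the regulatory particle, fell by 0.76 (adjusted p = 0.0140). Of the interferon list, Irf1 (1.07) and Stat2 (0.66) rose, and Gbp3, Isg15, Ifit1 and Irgm1 fell, from -1.18 to -0.61. All 6 of these genes had been called in the opposite direction for virus B over untreated cells, the shared control of this comparison. Nfe2l1 too had been called in the opposite direction there (-0.49). Against untreated cells, 16 of the 49 probes, Psmc3ip among them, were lower with MEF2D-VP16 and 1 was higher, where 18.3% of all probes were called.

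Nur77 over virus B called 0 of the 49 probes, where 3.62% of all probes were called higher and 3.29% lower, 6.91% in all; 4 members had an unadjusted p under 0.05. The 5 inducible genes ran from -0.26 (Psmb10) to 0.34 (Psme2, SE 0.12, adjusted p = 0.143). Constitutive probes ran from -0.57 to 0.36 with a median of -0.04. On the Nur77 arrays themselves Psmb9 read -1.10, -0.86, -0.42 and -0.36 against untreated cells, and it was likewise below 0 on all 4 arrays of virus B and of MEF2D-VP16. Psmb9 was the only member called for virus B over untreated cells (-0.49, SE 0.08, adjusted p = 0.0153), where 2.71% of all probes rose and 3.01% fell, 5.72% in all. That call was lost without the dye column and when replicate 1 or replicate 4 was left out (adjusted p = 0.242 without the dye column and up to 0.0710 without an array).

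PMA with ionomycin for 2.5 h activates T cell signalling without the receptor. Relative to virus A, 5 of the 49 probes were called. Psmd11 (probe M200012691), Psme2 and Psmb10 rose, and the chaperone gene Psmg2 and Psmc3ip fell. This is close to the background: 6.12% of the members rose and 4.08% fell, where 6.07% of all probes rose and 6.43% fell, 12.5% in all. Psmb10 ran from -0.03 to 0.74 with a median of 0.49 on 8 stimulated arrays and from -0.32 to 0.26 with a median of -0.08 on 12 virus A arrays (log2 change 0.50, SE 0.11, adjusted p = 0.00399). Psme2 ran from -0.23 to 1.25 with a median of 0.35, against -0.71 to 0.42 with a median of -0.18 (0.62, SE 0.17, adjusted p = 0.0182). The groups overlapped for both genes. Psme1 (0.30, adjusted p = 0.194), Psmb8 (-0.05) and Psmb9 (-0.13) were not called.

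Psmd11 (probe M200012691) rose by 0.75 (SE 0.17, adjusted p = 0.00455), while its other probe averaged -0.02 on stimulated and 0.02 on virus A arrays. Psmg2 fell by 0.50 (SE 0.15, adjusted p = 0.0288) and Psmc3ip by 0.76 (SE 0.22, adjusted p = 0.0232). Each of the 5 calls was lost within slide series 14 alone and within series 15 alone, where Psmb10 was at 0.52 (adjusted p = 0.0758) and 0.48 (adjusted p = 0.198). With the sign of the 2 unsettled virus A arrays turned, Psme2 was no longer called and Psmd8 was called. Against untreated cells Psme2 was not called (0.46, adjusted p = 0.0771) and Psme1 rose (0.42, adjusted p = 0.0252). Psmg2 and Psmc3ip lost their call for 4 and 3 of the 8 stimulated arrays left out in turn. Of the 32 interferon-list probes 3 rose (Socs1, Jak2 and Irf8) and 0 fell, where 6.07% of all probes rose and 6.43% fell.

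HDAC7 DP with PMA and ionomycin called 0 of the 49 probes relative to the empty virus under the same stimulus, where 0.522% of all probes rose and 1.12% fell, 1.65% in all; 6 members had an unadjusted p under 0.05. All 5 inducible genes lay below 0, from -0.43 (Psmb10, SE 0.13, adjusted p = 0.140) to -0.13 (Psmb8, adjusted p = 0.776). All 5 ATPase probes lay above 0, from 0.03 to 0.45. Psmb10 ran from -0.43 to 0.27 with a median of 0.04 on the HDAC7 DP arrays, overlapping the stimulated empty-virus arrays given above. Within slide series 14 alone Psmd3 (-1.02, adjusted p = 0.0113), Psmd13 (adjusted p = 0.0471) and Psmd11 (probe M200012691, -0.84, adjusted p = 0.0496) fell, where 1.17% of all probes were called. In series 15 they were at 0.17, -0.16 and 0.10 and were not called.

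HDAC7-VP16 called 0 of the 49 probes over virus A, where 1.42% of all probes rose and 1.29% fell, 2.72% in all; 2 members had an unadjusted p under 0.05. The inducible genes ran from -0.26 (Psmb9) to 0.21 (Psmb10) and the constitutive probes from -0.23 to 0.40. Virus A over untreated cells also called 0 members (0.626% of all probes rose and 1.35% fell, 1.97% in all), and 5 had an unadjusted p under 0.05. With the sign of the 2 unsettled virus A arrays turned, 0 of all probes were called there, against 325 before. Psmd3 had the lowest value there (-0.42, adjusted p = 0.163), over arrays from -1.12 to 0.20. It passed the threshold when slide series entered as a block, with same-numbered slides averaged and within series 14 alone (-0.84, adjusted p = 0.0330), and was at 0.00 within series 15.

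Across the 7 hybridoma groups the mean of Psmb8 stayed between -0.18 and 0.06, with SDs of 0.04 to 0.66. That of Psme1 ran from -0.02 to 0.42, highest with PMA and ionomycin (0.42 ± 0.30, SD, n = 8) and next with MEF2D-VP16 (0.31 ± 0.18, n = 4), whose arrays overlapped. Psmb10 ran from -0.19 with Nur77 to 0.44 with PMA and ionomycin, and Psme2 from -0.16 with virus A to 0.46 with PMA and ionomycin. Psmb9 ran from -0.69 with Nur77 to 0.11 with virus A. Over all 11 groups Psmb5 stayed between -0.11 and 0.17, Psmb7 between -0.16 and 0.10, and Psmb6 between -0.38, with MEF2D-VP16, and 0.17.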

How the data were processed

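Total RNA was extracted with acid phenol, aminoallyl cDNA was made and coupled to Cy3 or Cy5, per the labels' protocols. The authors deposited log2 ratios of both channels of 74 arrays (16463 probes, 0 missing values, array medians from -0.021 to 0.023). The log base is assumed, and scanner, background correction, normalization and the direction of the ratio are not stated in any label or header. Without spot intensities, no probe could be checked against background. Probes were named by the platform's annotation (14551 with 1 symbol, 6 with several, 1906 with none), and all 49 members were found in the RefSeq gene table. A further gene that shares the letters is not reported here.

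Each array was centred on its median. Then limma 3.58.1 (lmFit and eBayes, under R 4.3.3) was run for each of 11 comparisons on the arrays of its own groups, with a dye column, and a moderated F test was run over the 3 peptide groups. The scripts were tested on simulated data. Members, gene lists and markers were chosen with earlier results of these data known. Named were the 5 inducible genes, Psmb5, Psmb6 and Psmb7 throughout, and in each comparison up to 4 called members of the largest change in each direction; other members named were chosen after their values were seen. Alternatives covered the dye column, centring, pooling of groups, slide sets, control arrays and left-out arrays; those without slides 13-3 and 13-4 at 3 h and without slides 13-7 and 13-8 in the test of times were chosen after seeing the data.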

Additional observations from a re-analysis of the deposited data

Results flagged for a closer look

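Single arrays stood apart from their group, by Dixon's test at the 95% level, in 8 of 110 gene and group combinations checked, where chance gives about 1 in 20. HDAC7 DP replicate 5 was low for Psmb8 (-1.14, next array -0.13) and for Psmb5 (-0.74, next array -0.22), and replicate 2 of that group was high for Psmb6 (1.17, next array 0.01). In the mhc -/- comparison replicate 3 was the highest for Psmb9 (-0.12, next array -0.41). For Psmb10, 3 h replicate 2 was high (0.56, next array 0.12) and 6 h replicate 1 was low (0.37, next array 0.78). At 12 h, replicate 2 was high for Psmb9 (1.61, next array 0.95), and replicate 4 for Psmb7 (0.11, next array -0.01).

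The peptide times differed from each other, by limma's moderated F test over all probes, for Psmb9 (adjusted p = 0.00148), Psme1 (adjusted p = 0.0210), Psmb10 (adjusted p = 0.0386) and Psmg1 (adjusted p = 0.0425).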

How the results depend on the processing

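The counts of called members (limma) moved by over 1.5 times under these settings. Virus A over untreated cells went from 0 to 1 with slide series as a block, with series 14 alone and with same-numbered slides averaged, Psmd3 each time. Virus B over untreated cells went from 1 to 0 without the dye column. HDAC7-VP16 went from 0 to 1 with series 15 alone. PMA and ionomycin went from 5 to 1 with series 14 alone, 0 with series 15 alone and 9 against untreated cells. HDAC7 DP went from 0 to 3 with series 14 alone and 8 against untreated cells. MEF2D-VP16 went from 10 to 17 against untreated cells. Nur77 went from 0 to 1 against all 16 empty-virus arrays and 2 against untreated cells. At 3 h the count went from 0 to 1 without the dye column, to 1 with all groups in one fit and to 5 without slides 13-3 and 13-4. At 6 h it went from 4 to 8 without series 13 slides. At 12 h it went from 3 to 11 with all groups in one fit and 19 without series 13 slides, where Psme2 turned from 0.16 to -0.25. Across the times it went from 4 to 12 without 12 h slides 13-7 and 13-8. The cause of these shifts was not tested.

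Leaving out 1 array gave 0 to 2 for virus B, 3 to 6 for PMA and ionomycin, 0 to 1 for HDAC7 DP and for Nur77, 0 to 2 at 3 h and 0 to 9 at 12 h. The other counts stayed within 1.5 times: 0 for HDAC7-VP16, 7 to 10 for MEF2D-VP16, 14 to 23 for the mhc -/- comparison and 3 to 5 at 6 h. Centring changed no count by over 1.5 times. Of the values of single genes under an alternative, 729 kept their side of the threshold, and 99 lost and 2 gained a call. A further 12 uncalled values moved by more than their SE, and 1 value reversed where a call was involved. Sign changes of uncalled values were not counted as reversed. For HDAC7 DP, Psme2 went from -0.22 to as high as 0.24 among the alternatives. No paired analysis was possible because the labels number slides, not cultures or animals; slide series as a block and same-numbered slides averaged were run as matches by slide and changed the count for virus A alone, as given above. Depth cannot be given for ratios; the number of arrays limits the precision.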
